A study of Mus musculus with 6 samples.

Results

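Aminoacyl-tRNA synthetases are the enzymes that load each tRNA with its amino acid. The genes described here were 39 of the 55494 rows of a gene count table, chosen by name alone: symbols made of an amino acid letter followed by "ars", with an optional 1 or 2 at the end, plus Farsa, Farsb, Eprs, Aimp1 and Aimp2. Of these, 22 were cytosolic (20 synthetase genes and the scaffold proteins Aimp1 and Aimp2) and 17, the synthetase genes whose symbol ends in 2, were mitochondrial. They were measured by poly(A) RNA sequencing of primary muscle stem cells (satellite cells) of wild-type mice, kept in culture for 2 days without (control, 3 libraries) or with (EET, 3 libraries) 11,12-EET. This compound is an epoxyeicosatrienoic acid, a lipid made from arachidonic acid by cytochrome P450 enzymes. Both groups had the wild-type genotype. The dose, the strain and the age of the mice were not given in the sources used here, and neither was whether the libraries came from separate animals or cultures. All tests rest on these libraries, so the p-values cover no more than the variation among these 6 libraries, part of which may be technical.

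A synthetase typically recognises a single amino acid and its tRNAs, in an ATP-driven reaction, and belongs to structural class I or II, while the fused protein of Eprs joins an enzyme of each class. In mammals the cytosol and the mitochondria mostly use separate genes, all encoded in the nucleus, while Gars and Kars serve both places from a single gene each. Several cytosolic synthetases sit in a large multi-synthetase complex held together by Aimp1, Aimp2 and Eef1e1 (AIMP3), and others are free in the cytosol. Mitochondrial glutaminyl-tRNA is made by a detour, in which the transamidase of Qrsl1, Gatb and Gatc amidates a mischarged tRNA. When amino acids run short, uncharged tRNA activates the kinase Eif2ak4 (GCN2), translation of the transcription factor Atf4 rises, and Atf4 raises transcription of many cytosolic synthetase genes. In muscle stem cells, leaving quiescence goes along with a rise in protein synthesis, for which charged tRNA is the substrate.

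Each library held 30371291 to 37243882 counts, and the 39 genes took 0.615 to 0.681% of them. Every one of the 39 passed the filter on low counts, with 242 to 23596 counts per gene and library. Levels are CPM, counts per 1000000 after TMM scaling, always for replicates 1, 2 and 3 in that order. Muscle stem cell markers (8 genes, none at 0) summed to 3691, 3432 and 3389 CPM in the controls and 3980.4, 3930.1 and 3895 with EET. Among them Pax7, the marker of the stem cell state, fell (-0.45 ± 0.07, adjusted p = 6.34e-05) and Des, the muscle intermediate filament desmin, rose (0.54 ± 0.08, adjusted p = 9.54e-05). After removal of the length and GC trend described below, Pax7 was not called (-0.049) and Des was higher (0.52). Of the 8 markers 4 rose and 1 fell as counted, and 1 was higher and 1 lower with the trend removed. Markers of other cell types were detected too: none of the 6 endothelial, 6 fibro-adipogenic, 6 macrophage, 5 Schwann and 5 pericyte markers was at 0. All marker counts here stand beside 24.6% of all genes tested higher and 23.3% lower as counted. With the trend removed these shares were 15.1% and 17.0%. The endothelial markers summed to 258, 274 and 265 CPM in the controls and 144, 141 and 163 with EET, and 5 of 6 fell as counted and 5 with the trend removed, with Flt1 at -1.16 ± 0.10 and -0.62 and Kdr at -1.18 ± 0.11 and -0.74 on the log2 scale. The fibro-adipogenic sum was 269.6 ± 2.92 CPM (SD, n = 3) in the controls and 231 ± 6.76 CPM in the EET libraries, with 2 of 6 lower as counted and 3 with the trend removed (Col15a1 at -1.38 ± 0.12 and -1.06, Pdgfra at -0.58 ± 0.08 and -0.054, the last not called). The macrophage sum was 89.3 ± 3.52 and 62.4 ± 16.4 CPM, with 2 of 6 lower as counted, and 3 lower and 1 higher with the trend removed (Ptprc at -0.98 ± 0.15 and -0.67, Csf1r at -0.58 ± 0.13 and -0.31, the last not called). The Schwann sum was 207 ± 6.46 and 189 ± 18.5 CPM, with 3 of 5 lower and 1 higher as counted, and 2 lower and 0 higher with the trend removed (Sox10 at -0.33 ± 0.08 and -0.48, S100b at 0.74 ± 0.19 and 0.22, the last not called). The pericyte sum was 88.3 ± 8.54 and 55.7 ± 2.25 CPM, with 3 of 5 lower and 1 higher as counted, and 1 lower and 0 higher with the trend removed (Cspg4 at -0.82 ± 0.10 and -0.30, Notch3 at -0.76 ± 0.13 and -0.27, the last not called). The part of these other cells in the values below was not tested.

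As counted, 14 of the 39 genes rose with EET, 6 fell and 19 did not pass the test (edgeR's quasi-likelihood test, called where the adjusted p was under 0.05, with Benjamini-Hochberg adjustment over the 16097 genes tested). The share called was 51.3%, beside 47.9% of all genes tested; 35.9% were higher and 15.4% lower, beside 24.6% and 23.3% of all genes. Among the cytosolic genes 8 rose and 4 fell of 22, and among the mitochondrial genes 6 rose and 2 fell of 17. Scaling by library totals alone changed this split to 4 higher and 5 lower cytosolic genes and 5 higher and 3 lower mitochondrial genes. Without EET 2, 4 cytosolic genes were called higher and 0 mitochondrial genes lower; without control 2 or control 3 the counts were 4 and 1, and without EET 1 they were 5 and 1. Most changes were small: 32 of the 39 log2 fold changes (EET over control) lay within 0.35 of 0, and Aimp1 alone exceeded 1. The median log2 fold change was 0.17 over the 39 genes, 0.069 over the cytosolic and 0.20 over the mitochondrial genes, against 0.0050 over all genes tested. All 3 EET libraries lay above all 3 controls for 17 genes and below them for 7, together 61.5% of the 39 beside 57.7% of all genes (29.6% above, 28.0% below). In bulk RNA, a smaller number of cells of a type and less RNA per cell cannot be told apart.

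A relation to mRNA length ran through these values. The 14 genes that rose had mRNAs of 1126 to 3570 bases, taken as the longest protein-coding transcript in the annotation, and the 6 that fell had mRNAs of 3980 to 11294 bases, so the lengths of those groups did not overlap. Genes that did not pass the test spanned 1868 to 4425 bases. Over the 39 genes, Spearman's rho between log2 fold change and length was -0.76, and it was -0.68 over the 13948 protein-coding genes tested, a description over genes that share the same 6 libraries. The fold changes of the synthetase genes are therefore described as counted and again after the smooth trend of each library with mRNA length and GC content was removed. With the trend removed, 11 of the 39 were called higher and 5 lower, 41.03% beside 32.2% of all genes (15.1% higher and 17.0% lower). The split by compartment then differed: 4 cytosolic genes were higher and 5 lower, while 7 mitochondrial genes were higher and 0 lower, where as counted 2 mitochondrial genes had fallen. A mitochondrial gene was called lower in the trend-removed fits with the replicate block and without control 1 and EET 3.

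**Figure D1:**
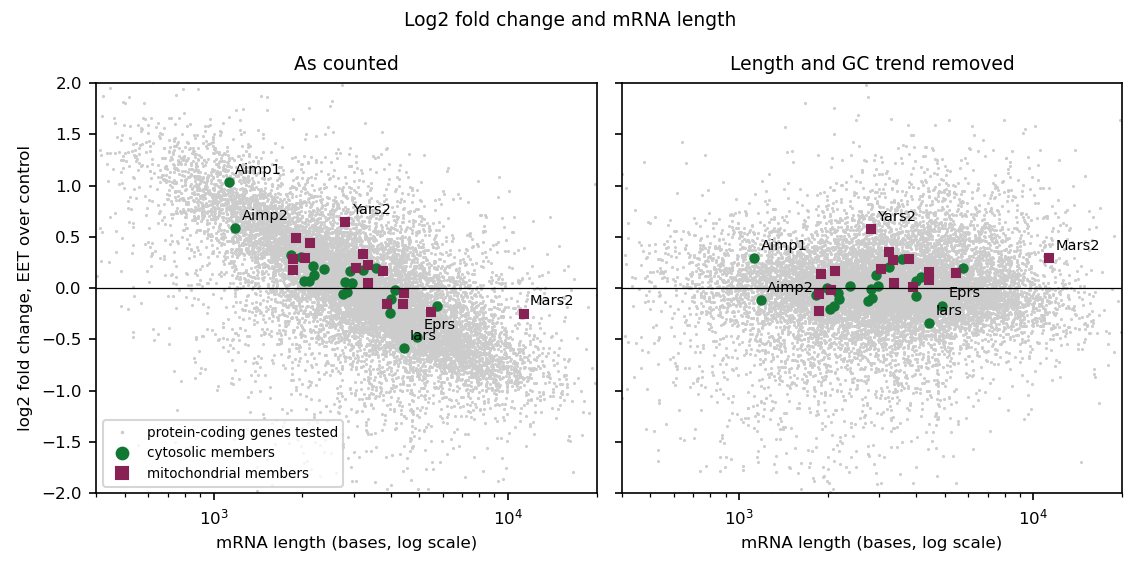
Log2 fold change (EET over control, vertical axis) against mRNA length in bases (horizontal log axis), before and after removal of the length and GC trend, for 38 of the 39 genes, cytosolic and mitochondrial, over all protein-coding genes tested (grey). As counted the points run from Aimp1 at the upper left down to the long mRNAs (rho -0.76 over the 39 genes), and with the trend removed they run from -0.34 (Iars) to 0.57 (Yars2), with a rho of 0.32 over the 39 genes.

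The scaffold genes of the multi-synthetase complex had the shortest mRNAs of the 39 (1126 and 1185 bases) and rose most among the cytosolic genes. Aimp1 (chr3:132660499-132684370, minus strand, GRCm38), the scaffold protein that is also known as a secreted cytokine precursor, was at 57.6, 57.2 and 54.9 CPM in the controls and 123, 126 and 98.8 with EET. The groups did not overlap, and the EET mean was 2.05 times the control mean (log2 fold change 1.03 ± 0.09 (SE), adjusted p = 1.27e-06). Aimp1 was still called higher after removal of the trend, at a smaller log2 fold change of 0.29 ± 0.05, adjusted p = 0.00038. Aimp1 shares 163 exonic bases with Tbck on the opposite strand, which was at -0.36 on the log2 scale as counted and 0.11 with the trend removed. Aimp2 (chr5:143902704-143909847, minus strand), which joins the sub-complexes of the assembly, was at 35.7, 30.2 and 28.4 CPM in the controls and 51.1, 45.9 and 44.9 with EET. Its groups did not overlap either, with a log2 fold change of 0.59 ± 0.10, adjusted p = 0.000162. The sign turned and the call was lost with the trend removed (-0.12 ± 0.07, adjusted p = 0.216). Aimp2 shares 487 exonic bases with Eif2ak1, the gene of the heme-regulated eIF2 kinase on the opposite strand, which was at -0.08 on the log2 scale as counted and 0.15 with the trend removed, not called in either. Eef1e1 (AIMP3), the remaining scaffold, which the naming rule does not cover, was at 62.2, 59.7 and 60.2 CPM in the controls and 109, 115 and 97.6 with EET. It rose both as counted (0.82 ± 0.08, adjusted p = 1.92e-06) and with the trend removed (0.67 ± 0.06, adjusted p = 9.26e-08). Aimp1 and Aimp2 summed to 93.3, 87.4 and 83.3 CPM in the controls and 174, 171 and 144 with EET.

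Of the 8 synthetase genes whose proteins the scaffold holds, 3 fell (Iars, Eprs and Lars), 1 rose (Dars), and Kars, Mars1, Qars and Rars did not pass the test. Of all genes tested, 23.3% fell and 24.6% rose. With the trend removed, 3 of the 8 were lower and 0 higher, beside 17.0% and 15.1% of all genes. Iars, isoleucyl-tRNA synthetase (chr13:49682100-49734267, plus strand), was at 334, 356 and 352 CPM in the controls and 225, 213 and 257 with EET. Every EET library was below every control, and Iars had the lowest log2 fold change of the 39 (-0.58 ± 0.08, adjusted p = 2.08e-05). It also fell with the trend removed (-0.34 ± 0.05, adjusted p = 2.06e-05). A processed pseudogene of Iars, Gm4849, 96.0% identical over 1656 bases, held 8 counts in all 6 libraries together. Eprs, the fused glutamyl- and prolyl-tRNA synthetase (chr1:185363044-185428360, plus strand), was at 491, 500.3 and 483 CPM in the controls and 351, 335 and 372 with EET. The EET libraries were again all lower (log2 fold change -0.48 ± 0.06, adjusted p = 3.07e-05), and the fall held at a smaller size with the trend removed (-0.17 ± 0.05, adjusted p = 0.00776). Lars, leucyl-tRNA synthetase and a leucine sensor for mTORC1, was at 338, 325 and 313 CPM in the controls and 278, 269 and 278 with EET. Its groups did not overlap (-0.24 ± 0.06, adjusted p = 0.00503). That call was lost with the trend removed (-0.077 ± 0.05, adjusted p = 0.248). Summed over the 8 genes, the complex synthetases stood at 2484, 2401 and 2345 CPM in the controls and 2251, 2151 and 2219 with EET, so the EET sums lay below all control sums.

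Dars, aspartyl-tRNA synthetase, was the complex member that rose (0.22 ± 0.07, adjusted p = 0.0172). It was at 244, 212 and 215 CPM in the controls and 259, 264 and 258 with EET. Its groups did not overlap, yet the sign turned with the trend removed (-0.045 ± 0.05, adjusted p = 0.518). The call as counted was lost, with the sign kept, in some fits that left out 1 library. The adjusted p was 0.113 without control 2, 0.0928 without control 3 and 0.0679 without EET 2. The range over the 6 such fits was 0.00255 to 0.113. Kars, lysyl-tRNA synthetase of both cytosol and mitochondria, was at 415, 375 and 367 CPM in the controls and 452, 407 and 409 with EET, with overlapping groups. It was not called in either fit (0.13 ± 0.07, adjusted p = 0.145, and -0.10 with the trend removed, adjusted p = 0.078). Rars, arginyl-tRNA synthetase, was at 252, 242 and 232 CPM in the controls and 258, 258 and 247 with EET. As counted its groups overlapped (0.068 ± 0.06, adjusted p = 0.414), and with the trend removed it was called lower (-0.18 ± 0.04, adjusted p = 0.00296). Qars, glutaminyl-tRNA synthetase, was at 174, 175 and 166 CPM in the controls and 186, 177 and 176 with EET. Every EET library was slightly above every control, without a call (0.063 ± 0.06, adjusted p = 0.454; -0.0073 with the trend removed). Mars1, methionyl-tRNA synthetase, was at 236, 216 and 217 CPM in the controls and 243, 229 and 222 with EET. Its groups overlapped, and it had log2 fold changes near 0 both as counted (0.054 ± 0.07, adjusted p = 0.544) and with the trend removed (0.023 ± 0.05, adjusted p = 0.745). The small positive values of Rars, Qars and Mars1 as counted turned to -0.0012, -0.0066 and -0.015 when scaled by library totals alone.

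**Figure D2:**
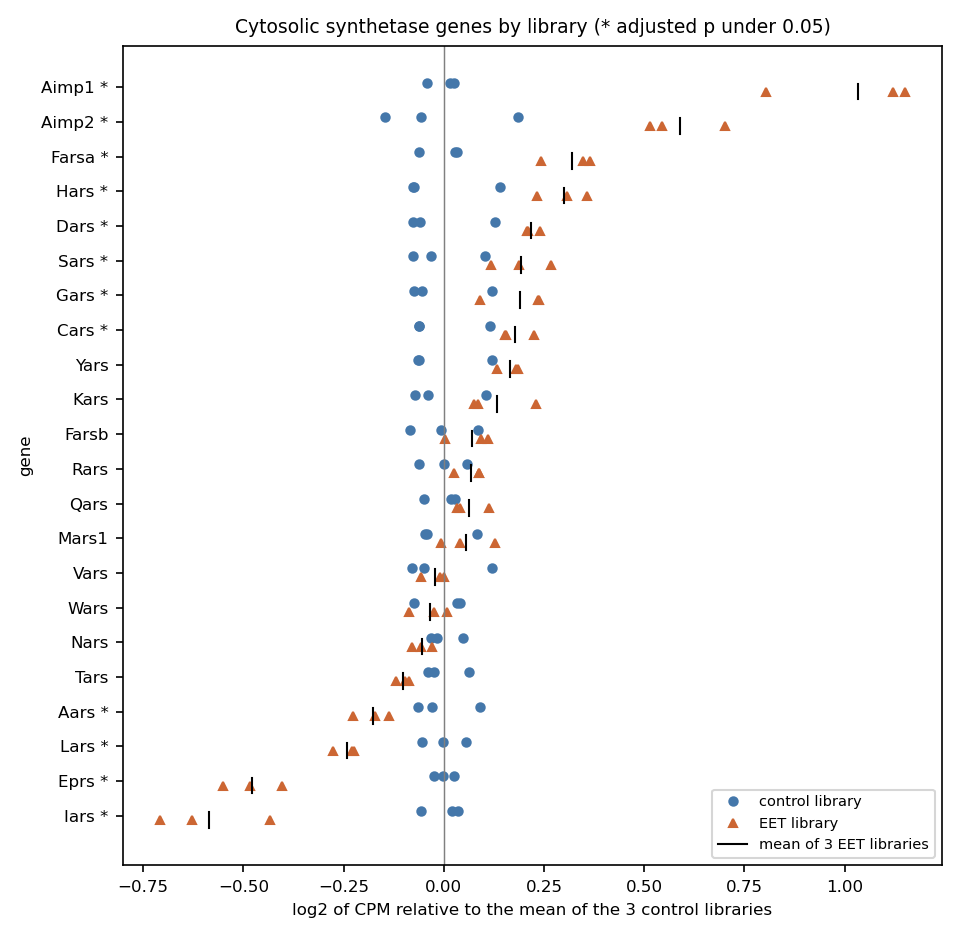
Log2 CPM relative to the control mean (horizontal axis) of each of the 22 cytosolic genes (rows) in each of the 3 control and 3 EET libraries (points), with the vertical line at the control mean, a tick at each EET mean and an asterisk at genes with adjusted p under 0.05. Aimp1 and Aimp2 lie furthest to the right in EET, Iars and Eprs furthest to the left, and most other genes keep the groups within 0.35 of each other.

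Of the 12 cytosolic synthetase genes outside the complex, 5 rose, 1 fell and 6 did not pass the test, beside 24.6% of all genes higher and 23.3% lower. With the trend removed, 3 of the 12 were higher and 2 lower, beside 15.1% and 17.0% of all genes. Farsa, the catalytic alpha subunit of phenylalanyl-tRNA synthetase, was at 103, 97.02 and 104 CPM in the controls and 129, 130.5 and 119.9 with EET. It rose with no overlap (0.32 ± 0.07, adjusted p = 0.0012). Farsb, the beta subunit of the same enzyme, was at 153, 143 and 136 CPM in the controls and 154, 155 and 144 with EET, with overlapping groups (0.069 ± 0.07, adjusted p = 0.443). After removal of the trend, the subunits stood at -0.063 (adjusted p = 0.375) for Farsa and -0.20 (adjusted p = 0.00241, called lower) for Farsb. The difference between the subunits was not tested. Hars, histidyl-tRNA synthetase, was at 158, 136 and 136 CPM in the controls and 184, 178 and 169 with EET and rose (0.30 ± 0.07, adjusted p = 0.00367). Its trend-removed value was close to 0 (0.0054 ± 0.05, adjusted p = 0.946). Sars, seryl-tRNA synthetase, was at 252, 229 and 222 CPM in the controls and 282, 267 and 254 with EET and rose (0.19 ± 0.07, adjusted p = 0.035). Cars, cysteinyl-tRNA synthetase, was at 179, 159 and 159 CPM in the controls and 193, 184 and 184 with EET and rose too (0.18 ± 0.07, adjusted p = 0.0462). Neither gene's groups overlapped. Both were higher with the trend removed as well, Sars at 0.29 ± 0.05, adjusted p = 0.000432 and Cars at 0.20 ± 0.05, adjusted p = 0.00304. Gars, glycyl-tRNA synthetase of both compartments, was at 423, 369 and 374 CPM in the controls and 458, 457 and 414 with EET. EET 3 lay below control 1, so the groups overlapped although the gene was called (0.19 ± 0.07, adjusted p = 0.0442). Its trend-removed value was 0.018 ± 0.05, adjusted p = 0.802.

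The calls of Sars, Cars and Gars were lost when control 2, control 3, EET 1 or EET 2 was left out, with the sign kept. Without control 2 their adjusted p-values were 0.139, 0.2 and 0.206, and without control 3 0.167, 0.188 and 0.168. Without EET 1 they were 0.133, 0.132 and 0.129, and without EET 2 0.0904, 0.0894 and 0.155. Over all 6 such fits the ranges were 0.00964 to 0.167, 0.0106 to 0.2 and 0.0081 to 0.206. Cars and Gars were also not called with RLE size factors (adjusted p = 0.0613 and 0.0567) or with DESeq2 (0.0678 and 0.0518), and Cars was not called without the filter on low counts (0.0765). Scaled by library totals, Sars (0.167), Cars (0.228), Gars (0.193) and Dars (0.0987) lost their calls. Control 1 was the highest control for 18 of the 22 cytosolic genes and for 7 of the 17 mitochondrial genes, and EET 3 was the EET library nearest to the control mean for 15 of the 20 called genes. Without control 1, 10 cytosolic genes were called higher in place of 8.

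Aars, alanyl-tRNA synthetase, whose annotated mRNA of 5750 bases is the longest of the cytosolic genes, turned around with the trend removed. It was at 474, 437 and 426 CPM in the controls and 396, 381 and 405 with EET, all EET libraries below all controls (log2 fold change -0.18 ± 0.07, adjusted p = 0.038). With the trend removed it was called higher (0.20 ± 0.05, adjusted p = 0.00618). Its principal transcript has the same 5750 bases, so with principal lengths only the fitted curve changed (0.22, adjusted p = 0.00486). The call as counted was also lost without control 1 (adjusted p = 0.127), control 2 (0.0841), EET 1 (0.0778) or EET 2 (0.155), with a range of 0.0212 to 0.155 over the 6 such fits, and without the filter on low counts (0.0527). Aars shares 1326 exonic bases on the same strand with Exosc6, which is listed at 0 in every library. These bases are part of the 5750 on which the trend-removed call of Aars and its level per kilobase of mRNA rest. Whether reads from them were counted is not known, and a shorter length for Aars was not tested. Vars, valyl-tRNA synthetase, was at 479, 417 and 426 CPM in the controls and 440.4, 424 and 438 with EET (-0.022 ± 0.07, adjusted p = 0.826, 0.11 with the trend removed). Tars, threonyl-tRNA synthetase, was at 271, 254 and 252 CPM in the controls and 238, 242 and 244 with EET (-0.10 ± 0.06, adjusted p = 0.206, 0.066 with the trend removed). The groups overlapped for Vars and not for Tars, and neither passed the test in either fit. Nars, asparaginyl-tRNA synthetase and the most abundant of the 39 genes, was at 620.0, 593 and 587 CPM in the controls and 568, 577 and 588 with EET, with overlapping groups (-0.055 ± 0.06, adjusted p = 0.502). It was called lower with the trend removed (-0.13 ± 0.04, adjusted p = 0.0176). Yars, tyrosyl-tRNA synthetase, was at 177, 156 and 156 CPM in the controls and 185, 179 and 186 with EET, every EET library above every control without passing the test (0.17 ± 0.07, adjusted p = 0.0616; 0.12 with the trend removed, adjusted p = 0.0507). Wars, tryptophanyl-tRNA synthetase, was at 119, 110.4 and 119 CPM in the controls and 117, 109.5 and 114 with EET, with overlap (-0.033 ± 0.07, adjusted p = 0.718; -0.10 with the trend removed).

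Among the mitochondrial enzymes, 6 of 17 rose as counted (Yars2, Cars2, Tars2, Fars2, Rars2 and Hars2), 2 fell (Iars2 and Mars2) and 9 did not pass the test. The share called was 47.1%, close to the 47.9% of all genes tested. By direction 35.3% were higher and 11.8% lower, beside 24.6% and 23.3% of all genes. With the trend removed, 7 of the 17 were higher and 0 lower, beside 15.1% and 17.0% of all genes. Yars2, mitochondrial tyrosyl-tRNA synthetase (chr16:16302965-16309640, plus strand), was at 36.6, 29.6 and 30.05 CPM in the controls and 50.8, 53.8 and 45.6 with EET. Its groups did not overlap, with the EET mean 1.56 times the control mean (0.64 ± 0.10, adjusted p = 9.15e-05), and it had the highest trend-removed value of the 39 (0.57 ± 0.08, adjusted p = 3.55e-05). That value was fitted with a length of 2805 bases, while the principal transcript of Yars2 has 1574. Its value with principal lengths is not given here. Tars2, mitochondrial threonyl-tRNA synthetase (chr3:95739976-95760206, minus strand), was at 60.6, 53.97 and 55.6 CPM in the controls and 72.7, 70.2 and 70.8 with EET, with no overlap (0.33 ± 0.07, adjusted p = 0.00188). It too was higher with the trend removed (0.36 ± 0.06, adjusted p = 0.000122). The length used for Tars2 was 3228 bases, and its principal transcript has 2400. Cars2, mitochondrial cysteinyl-tRNA synthetase (chr8:11513977-11550783, minus strand), was at 16.1, 17.9 and 15.2 CPM in the controls and 24.3, 24.3 and 20.3 with EET (0.49 ± 0.11, adjusted p = 0.00151). Fars2, mitochondrial phenylalanyl-tRNA synthetase, was at 14.1, 13.02 and 14.1 CPM in the controls and 17.2, 20.7 and 18.1 with EET (0.44 ± 0.11, adjusted p = 0.00305). The groups of neither gene overlapped. Neither was called with the trend removed (Cars2 0.14 ± 0.09, adjusted p = 0.28; Fars2 0.17 ± 0.10, adjusted p = 0.211). Cars2 shares 422 exonic bases with Naxd on the opposite strand, which was higher as counted by 0.61 on the log2 scale and at 0.00051 with the trend removed. Fars2 shares 115 with Lyrm4, at 1.08 as counted and 0.83 with the trend removed, and 501 with Nrn1, at 0.03 and -0.34. The library protocol marks strand, while the strand setting of the counting was not given in the sources used here, so the part of reads from these partners was not tested.

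Rars2, mitochondrial arginyl-tRNA synthetase, was at 33.00, 31.4 and 32.2 CPM in the controls and 38.2, 38.6 and 40.9 with EET, all EET libraries above all controls (0.28 ± 0.08, adjusted p = 0.00862). The sign turned, without a call, once the trend was removed (-0.060 ± 0.07, adjusted p = 0.561). Hars2, mitochondrial histidyl-tRNA synthetase, was at 28.4, 30.7 and 29.6 CPM in the controls and 34.8, 33.7 and 35.04 with EET. It rose as counted (0.22 ± 0.08, adjusted p = 0.035) and with the trend removed (0.27 ± 0.07, adjusted p = 0.00532). Its groups did not overlap, but its call as counted was lost in each of the 6 fits that left out 1 library (adjusted p from 0.0549 to 0.1). It was also lost with DESeq2 (0.0608), without the filter on low counts (0.0759), scaled by library totals (0.145) and without control 1 and EET 3 together (0.0998). Hars and Hars2 share 195 exonic bases on opposite strands. Iars2, mitochondrial isoleucyl-tRNA synthetase, was at 132, 131 and 135 CPM in the controls and 108, 108 and 120.2 with EET, all EET libraries below all controls (-0.24 ± 0.07, adjusted p = 0.00997). It was called higher with the trend removed (0.15 ± 0.05, adjusted p = 0.0294). Without EET 2 the fall as counted was not called (adjusted p = 0.0594, range 0.00141 to 0.0594 over the 6 such fits). It shares 2034 exonic bases with Rab3gap2 on the opposite strand, which was at -0.46 on the log2 scale as counted and 0.07 with the trend removed. Mars2, mitochondrial methionyl-tRNA synthetase, with the longest annotated mRNA of the 39 (11294 bases), was at 33.4, 35.8 and 36.6 CPM in the controls and 28.5, 27.9 and 32.7 with EET (-0.25 ± 0.09, adjusted p = 0.0342). Its groups did not overlap, and with the trend removed it was called higher (0.29 ± 0.08, adjusted p = 0.0061; 0.26 with principal transcript lengths). The principal transcript of Mars2 has the same length, so that alternative cannot test the length taken for it. The fall as counted was not called without control 2 (adjusted p = 0.108), control 3 (0.123), EET 1 (0.105) or EET 2 (0.142), with a range of 0.00608 to 0.142 over the 6 such fits.

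**Figure D3:**
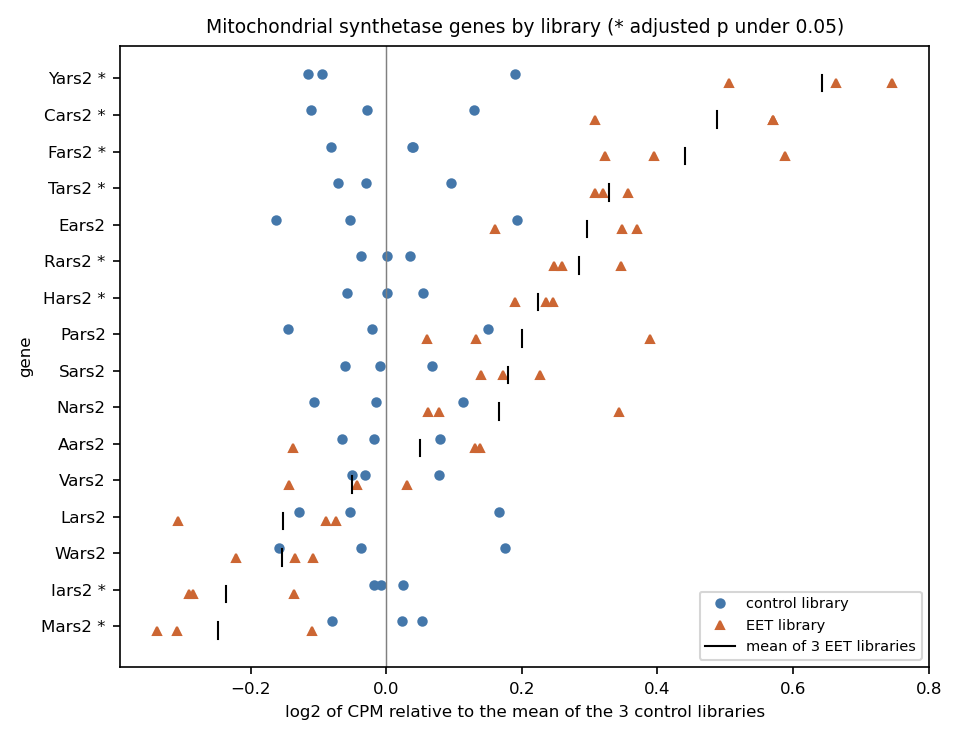
Log2 CPM relative to the control mean (horizontal axis) of 16 of the 17 mitochondrial genes (rows) in the 3 control and 3 EET libraries (points), with the vertical line at the control mean, a tick at each EET mean and an asterisk at genes with adjusted p under 0.05. Yars2, Cars2 and Fars2 lie furthest to the right in EET, Iars2 and Mars2 to the left, and the groups overlap for 7 of the genes shown.

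The other mitochondrial enzymes described here were not called as counted. Nars2 (asparagine) was at 15.5, 16.6 and 18.1 CPM in the controls and 17.4, 21.2 and 17.6 with EET, with overlap (0.17 ± 0.11, adjusted p = 0.233). It was called higher with the trend removed (0.28 ± 0.10, adjusted p = 0.0303). Sars2 (serine) was at 20.7, 21.8 and 19.97 CPM in the controls and 22.9, 23.5 and 24.4 with EET, with every EET library above every control (0.18 ± 0.09, adjusted p = 0.117), against -0.23 ± 0.09, adjusted p = 0.0595 with the trend removed. Ears2 (glutamate) was at 14.7, 12.4 and 11.5 CPM in the controls and 16.6, 14.4 and 16.3 with EET (0.29 ± 0.12, adjusted p = 0.0532; -0.018 with the trend removed). Lars2 (leucine) was at 159, 195 and 168 CPM in the controls and 165, 164 and 141 with EET (-0.15 ± 0.09, adjusted p = 0.166; 0.0070 with the trend removed). Both had overlapping groups. Wars2 (tryptophan) was at 10.6, 12.3 and 9.73 CPM in the controls and 9.89, 10.1 and 9.32 with EET (-0.16 ± 0.13, adjusted p = 0.339; 0.081 with the trend removed). Vars2 (valine) was at 30.9, 28.7 and 28.3 CPM in the controls and 29.9, 26.5 and 28.4 with EET (-0.050 ± 0.09, adjusted p = 0.678; 0.16 with the trend removed). Their groups overlapped as well. Pars2 (proline) was at 9.43, 8.38 and 7.69 CPM in the controls and 8.87, 11.1 and 9.32 with EET (0.20 ± 0.14, adjusted p = 0.26; 0.19 with the trend removed). Aars2 (alanine) was at 29.5, 26.7 and 27.6 CPM in the controls and 30.8, 30.6 and 25.4 with EET (0.050 ± 0.10, adjusted p = 0.709; 0.055 with the trend removed). The groups of both overlapped. In total, the 17 mitochondrial genes were at 677, 699 and 668 CPM in the controls and 713, 717 and 691 with EET, where EET 3 lay below control 2.

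Counting both fits together, 8 of the 39 genes were called in the same direction with and without the trend: Aimp1, Sars, Cars, Yars2, Tars2 and Hars2 higher, and Iars and Eprs lower. For Yars2 and Tars2 the trend-removed calls rest on transcripts longer than their principal ones. Aars, Iars2 and Mars2 were called in opposite directions, lower as counted and higher with the trend removed. Of all 16097 genes tested, 1650 were higher in both fits, 1748 lower in both and 294 called in opposite directions. Among the 39 genes these counts were 6, 2 and 3, and they are not read as a result about the synthetase genes. A further 5 genes were called only with the trend removed, 3 of them lower (Rars, Farsb and Nars) and 2 higher, Nars2 among them. The sign of the log2 fold change turned for 18 of the 39. Counts over all genes are not given here for turned signs or for calls made only with the trend removed. The trend-removed median was 0.055 over the 39 genes, -0.026 over the cytosolic and 0.16 over the mitochondrial genes, beside -0.035 over all genes tested. Spearman's rho between trend-removed value and mRNA length was 0.32 over the 39 genes, beside 0.014 over the protein-coding genes tested. A positive relation to length thus remained among the 39, and Aars, Iars2 and Mars2 have their longest mRNAs (5750, 5471 and 11294 bases). The slope of a gene's log2 CPM, relative to its mean over the 6 libraries, on log2 mRNA length over the 39 genes was 0.13, 0.20 and 0.21 per doubling of length in the controls. In the EET libraries it was -0.21, -0.21 and -0.11, so every control sloped up and every EET library down, EET 3 least.

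**Figure D4:**
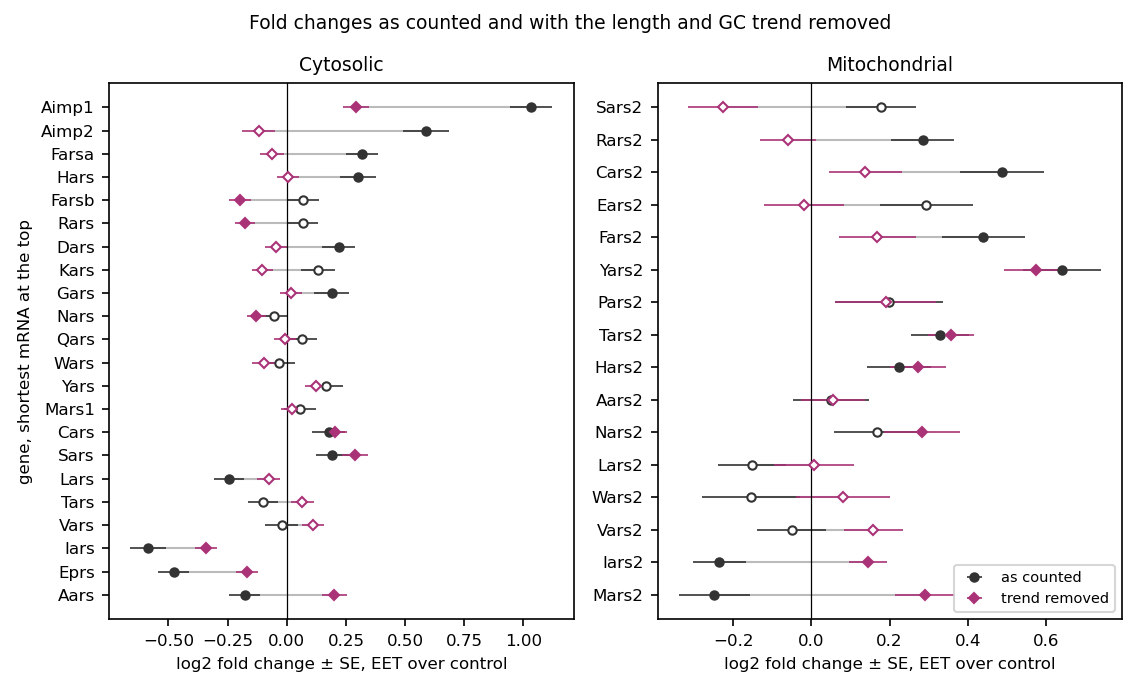
Log2 fold change (EET over control, horizontal axis) of 38 of the 39 genes (rows) before and after removal of the length and GC trend, with standard errors; filled points passed adjusted p under 0.05 in that fit and hollow points did not. Aimp1 moves from 1.03 to 0.29, Iars stays below 0 and Yars2 above 0, while Aars, Iars2 and Mars2 cross from one side to the other.

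The structural classes of the enzymes were spread over both directions. Their counts stand beside 24.6% of all genes higher and 23.3% lower as counted, and 15.1% and 17.0% with the trend removed. Differences between the classes were not tested. Of the 9 cytosolic class I genes 1 rose and 2 fell, and of the 10 cytosolic class II genes 5 rose and 1 fell, with Eprs, which holds both classes in 1 protein, counted apart. Of the 9 mitochondrial class I genes 3 rose and 2 fell, and of the 8 mitochondrial class II genes 3 rose and none fell. The cytosolic class II genes had a median mRNA length of 2284.5 bases beside 2962 for class I, and with the trend removed the counts were 2 higher and 2 lower for class II and 1 higher and 2 lower for class I. In the mitochondrial set, class I had a median length of 3894 bases and 3 higher with the trend removed, and class II 3282 bases and 4 higher, with no lower call in either.

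Levels between genes were compared per kilobase of mRNA (CPM per kb, mean ± SD, n = 3). In the controls the cytosolic genes ran from 26.5 ± 3.22 CPM per kb (Aimp2) to 219 ± 6.36 (Nars), with a median of 73.7. The mitochondrial genes ran from 2.46 ± 0.293 (Wars2) to 44.7 ± 4.85 (Lars2), with a median of 8.61. In the EET libraries these medians were 73.1 for the cytosolic and 10.2 for the mitochondrial genes. Nars, Kars (176 ± 11.6) and Gars (163 ± 12.5) led the order in the controls, and the means of Kars and Gars differed by less than their combined spread. Lars2 was the only mitochondrial gene whose control level exceeded that of a cytosolic one, lying above Wars (41.1 ± 1.79), within the spread, and above Aimp2. The level of Wars rests on 2831 bases, while its principal transcript has 1824, a length that would give Wars a higher level. Its place below Lars2 is therefore stated for the longer length alone. Kars, Mars1, Pars2, Tars2 and Yars2 also have principal transcripts shorter than the lengths used. Aimp1 moved from 50.2 ± 1.29 CPM per kb in the controls to 103 ± 13.1 in the EET libraries. Iars moved from 78.4 ± 2.68 to 52.3 ± 5.20.

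For 14 amino acids both a cytosolic and a mitochondrial gene were among the 39. The cytosolic level per kb exceeded the mitochondrial one in every such pair, by 1.83 times for leucine (Lars over Lars2) to 49.4 times for asparagine (Nars over Nars2) in the controls, with a median of 7.40 in the controls and 6.93 in the EET libraries. The fold changes had the same sign in 10 of the 14 pairs as counted, and 3 pairs were called the same way: cysteine and histidine higher, and isoleucine lower. After trend removal, the isoleucine pair stood on opposite sides, Iars at -0.34 ± 0.05, adjusted p = 2.06e-05 and Iars2 at 0.15 ± 0.05, adjusted p = 0.0294. The mitochondrial gene had the higher log2 fold change in 8 of the 14 pairs as counted and in 11 with the trend removed. The tyrosine pair showed 0.64 for Yars2 beside 0.17 for Yars as counted, and 0.57 beside 0.12 with the trend removed. The value of 0.57 and the levels per kb of Yars2 rest on a length of 2805 bases. The ratio of Yars to Yars2 per kb went from 4.90 to 3.53. In the methionine pair the ratio of Mars1 to Mars2 went the other way, from 24.1 to 29.7. Differences within pairs were not tested.

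**Figure D5:**
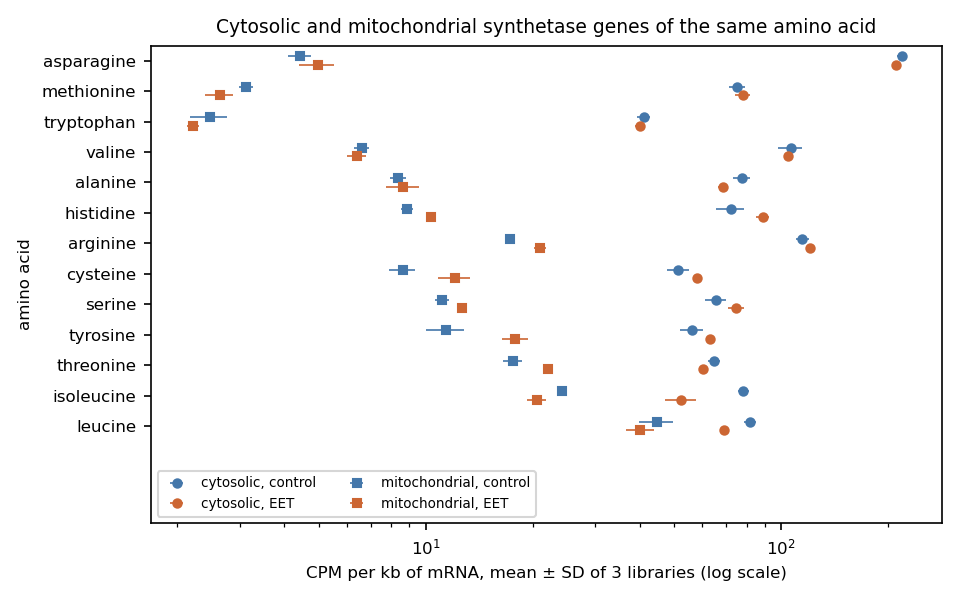
Level in CPM per kb of mRNA (horizontal log axis) of the cytosolic and the mitochondrial synthetase gene for 13 of the 14 amino acids with both (rows), as control and EET means with SD. The cytosolic gene is the higher one in every row, nearest for leucine (1.83 times) and furthest for asparagine (49.4 times).

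Other genes that act around the charged tRNA were counted over lists drawn up with earlier results of these data known. Their counts stand beside 24.6% of all genes higher and 23.3% lower as counted, and 15.1% and 17.0% with the trend removed. The median log2 fold change of all genes was 0.0050 as counted and -0.035 with the trend removed. Of 6 cytosolic elongation factor genes, which carry charged tRNA to the ribosome or recycle the carrier, 4 rose and none fell as counted, and 3 were higher and none lower with the trend removed (median 0.42 and 0.070). Eef1b2, an exchange factor subunit, was at 381, 357 and 351 CPM in the controls and 913, 944 and 721 with EET (1.24 ± 0.09, adjusted p = 7.4e-07; 0.94 ± 0.07, adjusted p = 3.57e-06 with the trend removed). Eef1d, another subunit, which binds Vars, rose by 0.75 ± 0.10 (adjusted p = 2.55e-05; 0.68 with the trend removed, adjusted p = 0.00233), while Vars itself stood at -0.022 ± 0.07. Of 10 mitochondrial translation factor genes 4 rose and none fell as counted, and 3 were higher and none lower with the trend removed (median 0.24 and 0.10). The smallest p-values as counted were those of Tsfm (0.76 ± 0.10, adjusted p = 1.73e-05) and Tufm (0.39 ± 0.08, adjusted p = 0.00118), the mitochondrial elongation factors Ts and Tu, although Tufm had the smallest rise of the 4. Neither was called with the trend removed (0.11 and -0.018). Of 17 genes for mitochondrial tRNA processing, modification and transamidation 9 rose and none fell as counted, against 3 and 1 with the trend removed (median 0.21 and -0.029). Pus1, a pseudouridine synthase, was at 0.54 ± 0.07 as counted and 0.16 with the trend removed, called in both. Hsd17b10, a subunit of mitochondrial RNase P, was at 0.70 ± 0.10 and -0.14, called as counted alone. The transamidase genes that stand in for a mitochondrial glutaminyl-tRNA synthetase were not called as counted: Qrsl1 0.19 ± 0.11, adjusted p = 0.19, Gatb 0.13 ± 0.12, adjusted p = 0.388 and Gatc 0.11 ± 0.08, adjusted p = 0.297. Gatc was called lower with the trend removed (-0.26 ± 0.07, adjusted p = 0.00574).

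Of 8 genes for charging accessory and synthetase-like proteins, 5 rose and 1 fell as counted, against 3 higher and none lower with the trend removed (median 0.62 and 0.12). The shares of all genes were 24.6% and 23.3% as counted and 15.1% and 17.0% with the trend removed. Besides Eef1e1, Pstk, the kinase that prepares selenocysteinyl-tRNA, rose as counted (0.96 ± 0.11, adjusted p = 7.88e-06) and was not called with the trend removed (0.23 ± 0.09, adjusted p = 0.067). Tarsl2, a second threonyl-tRNA synthetase gene, was at 8.93, 7.21 and 9.70 CPM in the controls and 7.24, 7.81 and 9.85 with EET, with overlapping groups (-0.053 ± 0.16, adjusted p = 0.813; -0.040 with the trend removed). Of 32 genes for nuclear tRNA transcription, processing and export, 19 rose and 6 fell, against 11 and 4 with the trend removed, beside the same shares of all genes (median 0.35 and 0.10). Pop5 and Pop7, subunits of nuclear RNase P, had the smallest p-values (Pop5 1.33 ± 0.14, adjusted p = 5.31e-06; Pop7 1.17 ± 0.11, adjusted p = 1.92e-06) and were also higher with the trend removed (0.51 and 0.33).

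The amino acid response is the pathway known to raise cytosolic synthetase genes. Of its 30 listed genes 10 rose and 9 fell as counted (median 0.12), beside 24.6% and 23.3% of all genes. With the trend removed 4 were higher and 6 lower (median -0.084), beside 15.1% and 17.0% of all genes, so these counts are not read as a result about the list. Atf4 itself was at 405, 379.7 and 366 CPM in the controls and 613, 602 and 553 with EET (0.62 ± 0.07, adjusted p = 6.58e-06), and was higher with the trend removed at 0.21 ± 0.04, adjusted p = 0.000624. Asns, asparagine synthetase and a standard Atf4 target, rose as counted (0.19 ± 0.06, adjusted p = 0.0269) and was not called with the trend removed (-0.086 ± 0.04, adjusted p = 0.138). Eif2ak4, the kinase that senses uncharged tRNA, fell as counted (-0.27 ± 0.09, adjusted p = 0.0195), as did its partner Gcn1 (-0.59 ± 0.07, adjusted p = 1.03e-05), and neither was called with the trend removed (0.10 and -0.057). The promoters of the 39 genes were searched for the 8 letters TGATGNAA, the pattern known from amino acid response elements, on both strands. RefSeq windows from 250 bases before to 50 bases after the transcription start (GRCm38.p6) were held for 29 of the 39 genes, in 31 windows. A match lay in 5 of the 31 windows (16.1%), beside 3.97% of all 32851 windows, and all 5 belonged to cytosolic genes, of the 15 cytosolic and 14 mitochondrial genes with a window. These 5 windows are shown because they hold the letters of the response element, with each match in capitals as it reads on the printed strand, 5′ to 3′, also where the letters lie on the other strand.

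Yars: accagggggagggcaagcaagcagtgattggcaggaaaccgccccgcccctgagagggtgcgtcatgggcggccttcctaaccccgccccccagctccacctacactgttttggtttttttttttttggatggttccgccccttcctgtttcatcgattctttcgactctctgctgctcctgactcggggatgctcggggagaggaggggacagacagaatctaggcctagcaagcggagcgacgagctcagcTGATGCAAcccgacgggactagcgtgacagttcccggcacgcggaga
Gars: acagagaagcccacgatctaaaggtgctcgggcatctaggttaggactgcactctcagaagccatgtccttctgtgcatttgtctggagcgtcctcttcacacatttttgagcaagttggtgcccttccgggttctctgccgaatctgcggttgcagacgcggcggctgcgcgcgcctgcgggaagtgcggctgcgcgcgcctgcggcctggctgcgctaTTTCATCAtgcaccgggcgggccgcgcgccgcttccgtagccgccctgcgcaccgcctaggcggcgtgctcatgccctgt
Aars: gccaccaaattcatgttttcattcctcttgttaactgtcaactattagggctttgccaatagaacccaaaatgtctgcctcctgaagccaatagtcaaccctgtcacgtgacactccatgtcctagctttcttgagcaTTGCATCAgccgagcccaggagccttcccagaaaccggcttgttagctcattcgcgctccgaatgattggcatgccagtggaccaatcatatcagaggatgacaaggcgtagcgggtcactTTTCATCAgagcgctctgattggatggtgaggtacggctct
Iars: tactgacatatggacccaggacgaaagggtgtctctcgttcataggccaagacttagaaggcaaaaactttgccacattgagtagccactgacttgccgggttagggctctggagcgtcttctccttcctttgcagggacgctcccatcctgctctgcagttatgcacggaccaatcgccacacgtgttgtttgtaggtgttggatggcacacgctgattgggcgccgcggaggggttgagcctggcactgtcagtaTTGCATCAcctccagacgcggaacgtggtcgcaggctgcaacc
Tars: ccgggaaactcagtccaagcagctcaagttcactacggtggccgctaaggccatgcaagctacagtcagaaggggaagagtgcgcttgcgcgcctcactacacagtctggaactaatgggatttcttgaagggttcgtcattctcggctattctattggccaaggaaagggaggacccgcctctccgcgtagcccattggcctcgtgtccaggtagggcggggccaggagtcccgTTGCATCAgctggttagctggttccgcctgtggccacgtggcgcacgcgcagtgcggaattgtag

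The windows lie at chr4:129189653-129189952, plus strand (Yars), chr6:55037751-55038050, plus strand (Gars), chr8:111033592-111033891, plus strand (Aars), chr13:49681880-49682179, plus strand (Iars) and chr15:11399609-11399908, minus strand (Tars). Counted from the start site as position 0, the match began at 3 in Yars, -30 in Gars, -112 and 9 in Aars, 7 in Iars and -15 in Tars. As counted, the 5 genes spread over both directions: Gars rose (0.19 ± 0.07), Iars and Aars fell (-0.58 ± 0.08 and -0.18 ± 0.07), and Tars and Yars did not pass the test (-0.10 ± 0.06 and 0.17 ± 0.07). After trend removal, Aars was higher (0.20), Iars lower (-0.34), and Gars, Tars and Yars were not called (0.018, 0.066 and 0.12). The E-box CACGTG lay in 5 of the 31 windows (16.1%, beside 7.15% of all windows), those of Farsb, Ears2, Aars, Iars and Tars, so the windows of Aars, Iars and Tars held both sets of letters, without overlap. A match describes the letters alone.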

How the data were processed

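Poly(A) RNA of 3 control and 3 EET libraries was sequenced in paired-end reads. Per the labels' protocols, the second cDNA strand was marked with dUTP. The values are raw counts per gene, deposited by the authors in 1 table; FastQC, cutadapt, DESeq2 and GRCm38 appear in the submitters' processing notes, and the sources used here give no aligner, counter or strand setting. From these counts, edgeR 4.0.16 in R 4.3.3 (default low-count filter, TMM, robust quasi-likelihood fit on group alone) tested 16097 genes, with Benjamini-Hochberg adjustment and a threshold of 0.05. Errors of log2 fold changes are the coefficient over the square root of F. CPM were computed with TMM scaling.

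The trend fit entered, as an offset, a loess curve (span 0.3) of each library's deviation on mRNA length and GC content (GENCODE M21). Symbols matched for 53699 of 55494 rows, 407 of them through RefSeq synonyms. The fit as counted was tested on simulated data without a length or GC trend, and the trend fit was not. Of low counts (11 to 50), 61.3 to 62.1% were even in the controls and 65.0 to 65.6% in the EET libraries, so both mates of a pair may have been counted; dividing all counts by 2 was tried. Alternatives also covered scaling, filters, DESeq2 1.42.0, the replicate block and leaving out libraries.

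The members and lists were chosen with earlier results of these data known. The rule for naming genes was: the 39 members; outside them, the 2 genes of smallest p per list, and Eef1e1, Tarsl2, Qrsl1, Gatb, Gatc, Atf4, Asns and Eif2ak4. Partners that share a member's exons or sequence (Eif2ak1, Tbck, Naxd, Lyrm4, Nrn1, Rab3gap2, Exosc6 and Gm4849) were named after their values were seen. The values of 1 mitochondrial gene, which is counted among the 39, are not reported here.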

Additional observations from a re-analysis of the deposited data

How the results depend on the processing

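Leaving out each library in turn called 4 to 10 cytosolic genes higher and 3 to 4 lower, 5 to 6 mitochondrial genes higher and 0 to 2 lower. Of all genes it called 3291 to 4121 higher and 3029 to 3934 lower. The lowest cytosolic count came without control 2, control 3 or EET 2, the highest without control 1, and the lowest mitochondrial count of lower genes without EET 2. Aimp1, Aimp2, Iars, Eprs, Farsa, Hars, Lars, Yars2, Cars2, Tars2, Fars2 and Rars2 kept their calls in all 6 of these fits. With the replicate block, 10 cytosolic genes were called higher and 4 lower, and 8 mitochondrial genes higher and 3 lower. Same-numbered libraries deviated with correlations of -0.0035, -0.05 and 0.0092, so the numbers were not taken to pair them. Library totals in place of TMM called 4 cytosolic genes higher and turned the sign of Mars1 (-0.015), Qars (-0.0066), Rars (-0.0012) and Aars2 (-0.021), none of them called. DESeq2, RLE size factors, both other filters and counts divided by 2 turned no sign among the 39 and kept the counts of calls within 1.5 times. Single calls among them were lost: Cars and Gars with RLE and with DESeq2, Hars2 with DESeq2, and Aars, Cars and Hars2 with no filter. The filter over 5 CPM added calls, Yars and Ears2 among them. Vars ranged from -0.061 without control 2 to 0.041 without control 1, and stood at 0.023 without control 1 and EET 3. The following trend values are given in the order trend removed, trend removed with the replicate block, trend removed with principal transcript lengths, and trend removed without control 1 and EET 3. The last 2, and a fit without an rRNA row that changed no call, were chosen after seeing the data. Principal lengths changed the length itself only for Kars, Mars1, Wars, Pars2, Tars2 and Yars2, and for the other members only the fitted curve. These 4 fits called 2433, 2542, 2637 and 2644 of all genes higher, 2480 lower under the principal lengths, 4, 6, 6, 7 cytosolic genes higher and 0, 1, 0, 1 mitochondrial genes lower. For the fits after the first, the counts of cytosolic genes lower and of mitochondrial genes higher are not given here. The log2 fold change as counted, with these 4 values in brackets, was Aars -0.18 (0.20, 0.20, 0.22, 0.29), Dars 0.22 (-0.045, -0.043, -0.0098, -0.00082), Farsa 0.32 (-0.063, -0.062, -0.040, -0.089), Farsb 0.069 (-0.20, -0.20, -0.16, -0.17), Kars 0.13 (-0.10, -0.10, -0.14, -0.072), Qars 0.063 (-0.0073, -0.0071, 0.029, 0.00046), Rars 0.068 (-0.18, -0.18, -0.14, -0.17), Tars -0.10 (0.066, 0.068, 0.093, 0.14), Vars -0.022 (0.11, 0.11, 0.13, 0.17). For the mitochondrial genes and the rest it was Aimp2 0.59 (-0.12, -0.12, -0.085, -0.11), Ears2 0.29 (-0.018, -0.019, -0.0014, -0.014), Iars2 -0.24 (0.15, 0.15, 0.16, 0.18), Lars2 -0.15 (0.0070, 0.0065, 0.034, 0.044), Mars2 -0.25 (0.29, 0.29, 0.26, 0.33), Rars2 0.28 (-0.060, -0.063, -0.024, -0.13), Sars2 0.18 (-0.23, -0.23, -0.21, -0.35), Vars2 -0.050 (0.16, 0.16, 0.17, 0.21), Wars2 -0.16 (0.081, 0.086, 0.10, 0.15) and Pars2 0.20 (0.19, 0.19, -0.013, 0.30). With 3 libraries a group, fold changes of Pars2 and Wars2, at about 10 CPM, had standard errors of 0.14 and 0.13 on the log2 scale.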
